A study of Mus musculus with 12 samples.

Results

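The 42 mitosis and spindle genes described here encode the cyclins and kinases that start mitosis, the proteins that attach chromosomes to the spindle, the spindle motors and the proteins that divide the cell. They were taken by gene name from a list that was drawn up with earlier results of these data known, and 42 of 42 were found in both deposited tables, which share 20844 genes. Their RNA was measured in mouse embryonic fibroblasts, primary cells isolated at embryonic day 13.5 to 14.5 and grown in pyruvate-free DMEM with 10% serum. Each of 4 groups had 3 libraries, made 4 days after infection with adenovirus at a multiplicity of 500. The Nrf2 D29H group was homozygous for an inducible allele, LSL-Nrf2D29H, and received Cre, given to turn on NRF2 carrying the missense change D29H. The labelled-knockout group carried the same homozygous allele with the empty virus, and its titles name it an Nrf2 knockout. The Keap1 R554Q group was homozygous for the inducible allele CA-Keap1R554Q and received Cre, and the Keap1 wild-type group carried that allele with the empty virus and is labelled wild type. NRF2 (gene Nfe2l2) switches on antioxidant genes and KEAP1 marks NRF2 for degradation. Within a culture all libraries carried the same inducible allele and differed in whether Cre was given, so Cre itself and the mutant protein cannot be told apart. The Nrf2 and Keap1 cells were separate cultures in separate tables, so allele, culture and table cannot be told apart either. The labels do not say whether replicates came from separate embryos or cultures, and p-values then measure the spread between these libraries, which may be technical.

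Cells enter mitosis when CDK1 bound to B-type cyclins becomes active, and they leave it when the anaphase-promoting complex marks those cyclins for destruction. The genes of this program are transcribed together late in the cell cycle and are low in resting cells, so their RNA is widely used as a readout of how many cells in a culture divide. Their promoters often carry a cell cycle genes homology region (CHR), bound by the LIN54 subunit of the DREAM and MuvB complexes, and CCAAT boxes, bound by NF-Y. DREAM holds these genes down in resting cells, and MuvB with B-MYB and FOXM1 turns them up in dividing cells.

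Promoter windows of 250 bases before to 50 bases after the transcription start were matched by symbol in RefSeq (GRCm38.p6) for 34 of the 42 genes. The CHR letters TTTGAA, on either strand (TTCAAA on the other), were in the window of 26 of the 34 genes (76.5%), against 20.2% of 27025 genes. CCAAT, which reads as ATTGG on the other strand, was in 24 of the 34 (70.6%), against 41.1% of all genes. With the variant TTCGAA, which reads the same on both strands, counted as a CHR, both motifs stood together in 22 of the 34 windows (64.7%), against 8.61% of all genes. Among these matches, a pair of CCAAT boxes read on opposite strands overlap in Ube2c, and in Cdca8 a CHR and a CCAAT share a base. The median CHR match began at position 2 from the start and the median CCAAT match at -69.5. In the 250 upstream bases alone, TTTGAA was in 11 of 34 (32.4%, against 18.3% of all genes) while CCAAT kept 24 of 34, so most CHR matches began after the start. The E2F motif TTCCCGC, which reads as GCGGGAA on the other strand and is common in genes of DNA replication, was in 0 of 34 windows and in 5.29% of all genes. The NRF2 core motif, TGAC and GC parted by any 3 bases (either strand), was in 6 of 34 (17.6%), against 14% of all genes. Among 18 matched genes of G1 and S phase the CHR letters were in 2 (11.1%), and among 40 other mitotic genes in 21 (52.5%). A match shows only that the letters are there.

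**Figure D1:**
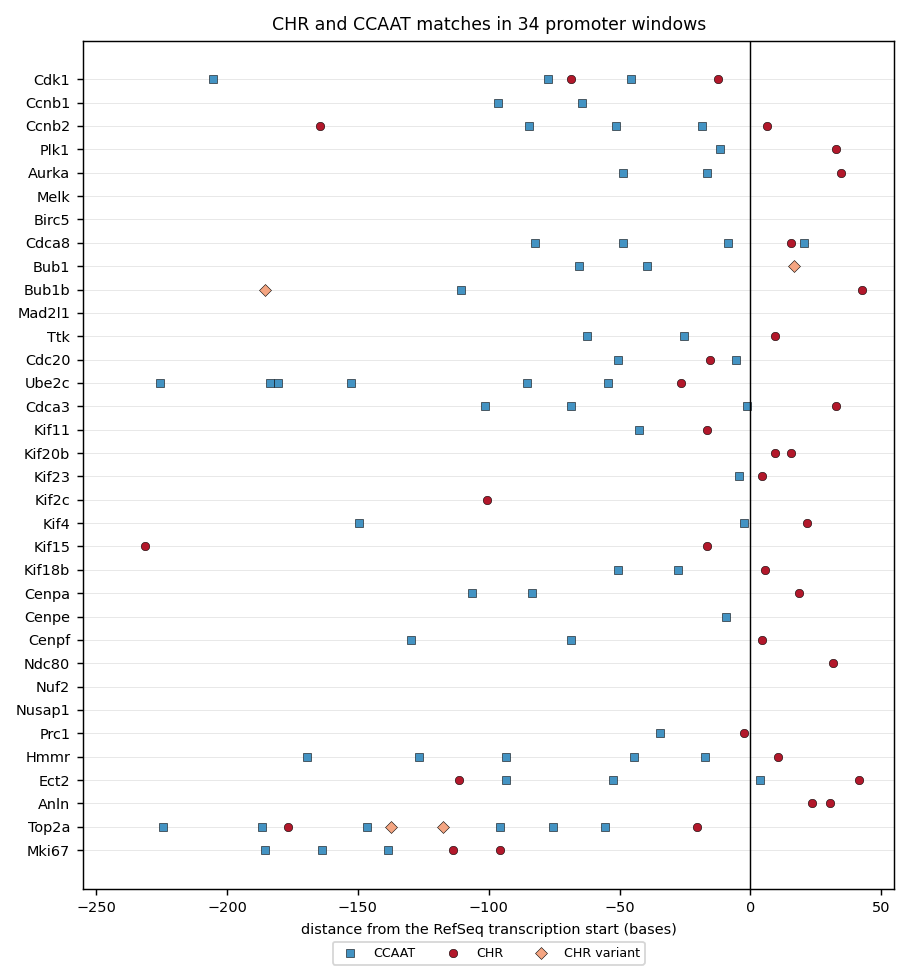
Places of CHR (TTTGAA), its variant (TTCGAA) and CCAAT matches in the promoter windows of the 34 matched genes, with the distance of each match's centre from the RefSeq start in bases on the x axis and 1 row per gene. CCAAT matches lie upstream in most rows and CHR matches gather at the start, with median first bases of -69.5 and 2.

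The stretches below run from 200 bases before the start to 20 bases into the first exon and are shown for the 6 genes called lower in one of the Cre comparisons, and for Kif18b, a kinesin with both motifs whose fitted change was the highest of the 42 in both comparisons. Capitals mark the CHR letters TTTGAA, the variant form TTCGAA and the box letters CCAAT on either strand. All 7 genes lie on the minus strand, and the windows are chr10:69352893-69353112 (Cdk1), chr2:172370551-172370770 (Aurka), chr17:71526838-71527057 (Ndc80), chr3:27153859-27154078 (Ect2), chr11:99024170-99024389 (Top2a), chr11:40733418-40733637 (Hmmr) and chr11:102925105-102925324 (Kif18b).
Cdk1: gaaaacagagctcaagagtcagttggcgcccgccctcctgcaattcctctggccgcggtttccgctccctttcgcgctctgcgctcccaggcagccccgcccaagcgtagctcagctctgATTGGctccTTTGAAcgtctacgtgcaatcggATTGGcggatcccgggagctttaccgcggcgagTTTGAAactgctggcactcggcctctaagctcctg
Aurka: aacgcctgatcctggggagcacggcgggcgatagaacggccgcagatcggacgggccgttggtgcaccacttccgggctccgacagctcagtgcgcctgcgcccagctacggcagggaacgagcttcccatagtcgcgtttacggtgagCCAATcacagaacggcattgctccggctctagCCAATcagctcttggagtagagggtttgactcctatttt
Ndc80: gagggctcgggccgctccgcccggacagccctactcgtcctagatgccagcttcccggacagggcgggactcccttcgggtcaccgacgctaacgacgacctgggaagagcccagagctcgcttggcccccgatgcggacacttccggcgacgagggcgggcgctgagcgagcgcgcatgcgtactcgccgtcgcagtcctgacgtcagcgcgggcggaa
Ect2: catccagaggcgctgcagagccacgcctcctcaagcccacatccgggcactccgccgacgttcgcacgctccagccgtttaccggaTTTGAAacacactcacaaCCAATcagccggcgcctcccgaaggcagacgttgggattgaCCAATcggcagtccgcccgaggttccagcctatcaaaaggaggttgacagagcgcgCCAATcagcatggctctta
Top2a: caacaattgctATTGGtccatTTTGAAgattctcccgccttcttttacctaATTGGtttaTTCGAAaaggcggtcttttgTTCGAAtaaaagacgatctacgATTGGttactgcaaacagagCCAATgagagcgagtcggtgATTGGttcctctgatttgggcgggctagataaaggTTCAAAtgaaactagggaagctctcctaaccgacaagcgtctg
Hmmr: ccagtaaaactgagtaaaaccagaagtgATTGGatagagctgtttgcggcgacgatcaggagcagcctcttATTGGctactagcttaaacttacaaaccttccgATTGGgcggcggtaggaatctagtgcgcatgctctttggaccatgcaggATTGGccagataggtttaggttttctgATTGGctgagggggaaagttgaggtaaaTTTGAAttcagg
Kif18b: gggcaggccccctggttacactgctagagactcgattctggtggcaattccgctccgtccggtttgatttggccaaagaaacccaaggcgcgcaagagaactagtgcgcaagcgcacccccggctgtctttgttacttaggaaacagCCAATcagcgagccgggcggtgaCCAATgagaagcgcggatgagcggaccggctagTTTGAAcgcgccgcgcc
Cdk1 has a CCAAT box followed by a CHR at each of 2 places, and Hmmr and Top2a each show 5 CCAAT boxes. Ndc80 shows none, and its TTTGAA, like that of Aurka, begins past the stretch, at 29 and 32 bases after the start. Kif18b, like Hmmr, has CCAAT boxes upstream and TTTGAA just after the start.

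Depth ran from 14963004 reads in labelled-knockout replicate 3 to 23818477 in labelled-knockout replicate 2, and the 42 genes together took 0.17% to 0.349% of the reads of a library. Counts of single members ran from 113 (Cdc25c) to 4326 (Top2a) per library, so none was near the limit of detection. Nfe2l2 was at 46.5, 40.1 and 41.2 CPM (reads relative to library depth) in the labelled-knockout libraries and at 49.6, 57.1 and 52.4 CPM with D29H (adjusted p 0.0713, edgeR), so this RNA does not mark the labelled knockout. Nqo1, a classic NRF2 target, rose by 3.74 on the log2 scale with D29H and by 3.41 with R554Q. All 9 fibroblast markers were present in every group (summed level 14600 to 20700 CPM), while Pecam1, Cdh5, Epcam, Cdh1 and the muscle factors Myod1, Myog and Myf5 were below 1 CPM or not listed in both tables. The other markers of these lists were detected, and the lists summed to 14.9 to 23.1 CPM (endothelial), 2.06 to 7.25 CPM (epithelial) and 9.15 to 16.6 CPM (muscle, with Des) over the libraries, while all 4 neural markers were detected and summed to 193 to 245 CPM.

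Per gene length, Cdc20 stood highest of the 42 in the mean over the 12 libraries and in every group but D29H, where Cenpa was at 83.2 FPKM. Cdc20 had deposited FPKM (fragments scaled to gene length and to the library's total, not across tables) of 81.7 ± 5.8 (SD, n = 3) with D29H, 98.3 ± 9.35 in the labelled knockout, 55 ± 3.41 with R554Q and 51.6 ± 3.36 in the wild type. Cenpa, the histone variant that marks centromeres, came next (mean of 63.8 FPKM over the 12 libraries, against 71.6 for Cdc20). Cenpf, a long kinetochore gene, was lowest with 1.77 to 3.08 FPKM by group. The median of the 42 was 16.9 FPKM with D29H, 20.1 in the labelled knockout, 11.3 with R554Q and 11 in the wild type. These medians were higher in both groups of Nrf2 cells than in both groups of Keap1 cells, and the 2 groups of a culture lay closer to each other than to the other culture.

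**Figure D2:**
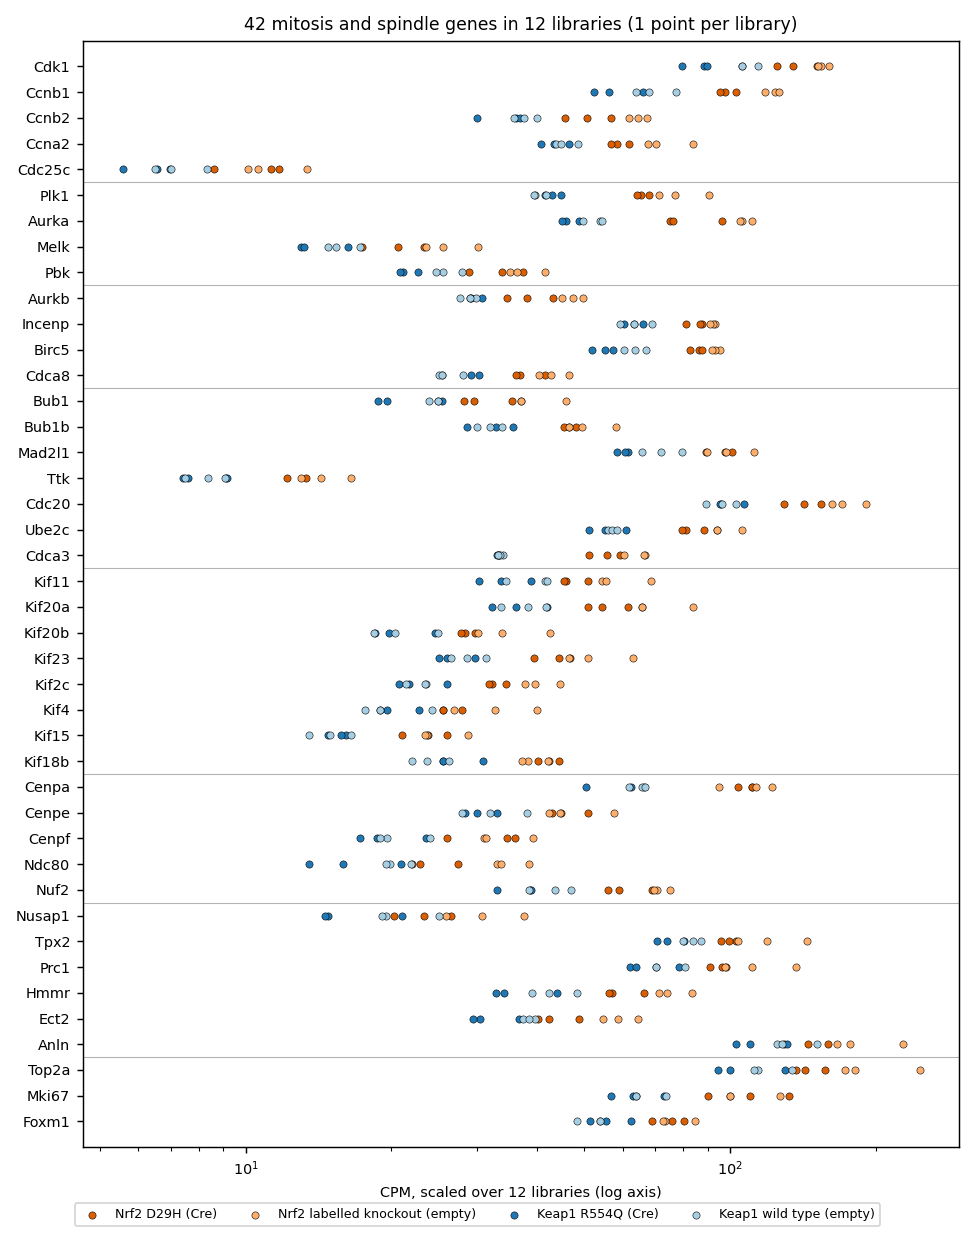
Level of each of the 42 genes in the 12 libraries, in CPM on a log axis, 1 point per library and rows ordered by role. For 39 of the 42 genes all 6 Nrf2 libraries (orange) lie above all 6 Keap1 libraries (blue), and within a culture the Cre (dark) and empty-virus (light) points lie close together.

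In the comparison of D29H with the labelled knockout, 5 of the 42 genes were called lower and 0 higher, that is, with a Benjamini-Hochberg adjusted p under 0.05 in edgeR over 14370 genes, where 1.28% of all genes were called lower and 3.47% higher. The 5 were Ndc80, Ect2, Top2a, Aurka and Hmmr. The fitted change was below 0 for 40 of 42 genes (49.9% of all genes), with a median of -0.30 on the log2 scale (0.815-fold) against 0 over all genes. The 3 D29H libraries lay below the 3 labelled-knockout libraries for 25 of 42 genes (12.6% of all genes). At an unadjusted p under 0.05 there were 27, all lower (10.3% of all genes were lower at that p). The share of reads from mitochondrial genes was higher in the D29H libraries (0.982%, 1.77% and 1.06%) than in the labelled-knockout libraries (0.904%, 0.725% and 0.733%), with D29H replicate 2 apart from the rest, and its part in the result was not tested. The summed fibroblast markers were also lower with D29H (16900 to 17600 CPM) than in the labelled knockout (19200 to 20700 CPM). Of these 9 markers 0 were called, and their part in the result was not tested. In bulk RNA, fewer dividing cells and less of these RNAs per cell cannot be told apart. The authors' deposited table, with its own adjusted p, called 10 of the 42 lower (2.91% of its genes): Ccnb1, Ccnb2, Ccna2, Aurka, Kif20a, Ndc80, Hmmr, Ect2, Anln and Top2a.

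In the comparison of R554Q with the Keap1 wild type, 1 of the 42 genes, Cdk1, was called lower and 0 higher, where 2.4% of 14128 genes were called lower and 3.77% higher, so this count was at the level of the background. The fitted change was below 0 for 32 of 42 genes (50.1% of all genes) and the median was -0.10 (0.932-fold). The libraries did not overlap for 6 of 42 genes, lower with R554Q in each: Cdk1, Aurka, Pbk, Birc5, Mad2l1 and Ect2. Of all genes 13.9% were lower without overlap, so this count too was at the level of the background. At an unadjusted p under 0.05 there were 11, all lower (11.4% of all genes were lower at that p). The authors' deposited table also called Cdk1 alone (4.9% of its genes lower). The summed macrophage markers were lower with R554Q (73.4 to 85.4 CPM) than in the wild type (102 to 113 CPM). Of the marker lists, Lyz2 (macrophage) and Des (muscle) were called lower and Pdgfra (fibroblast) higher with R554Q, and their part in the result was not tested.

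**Figure D3:**
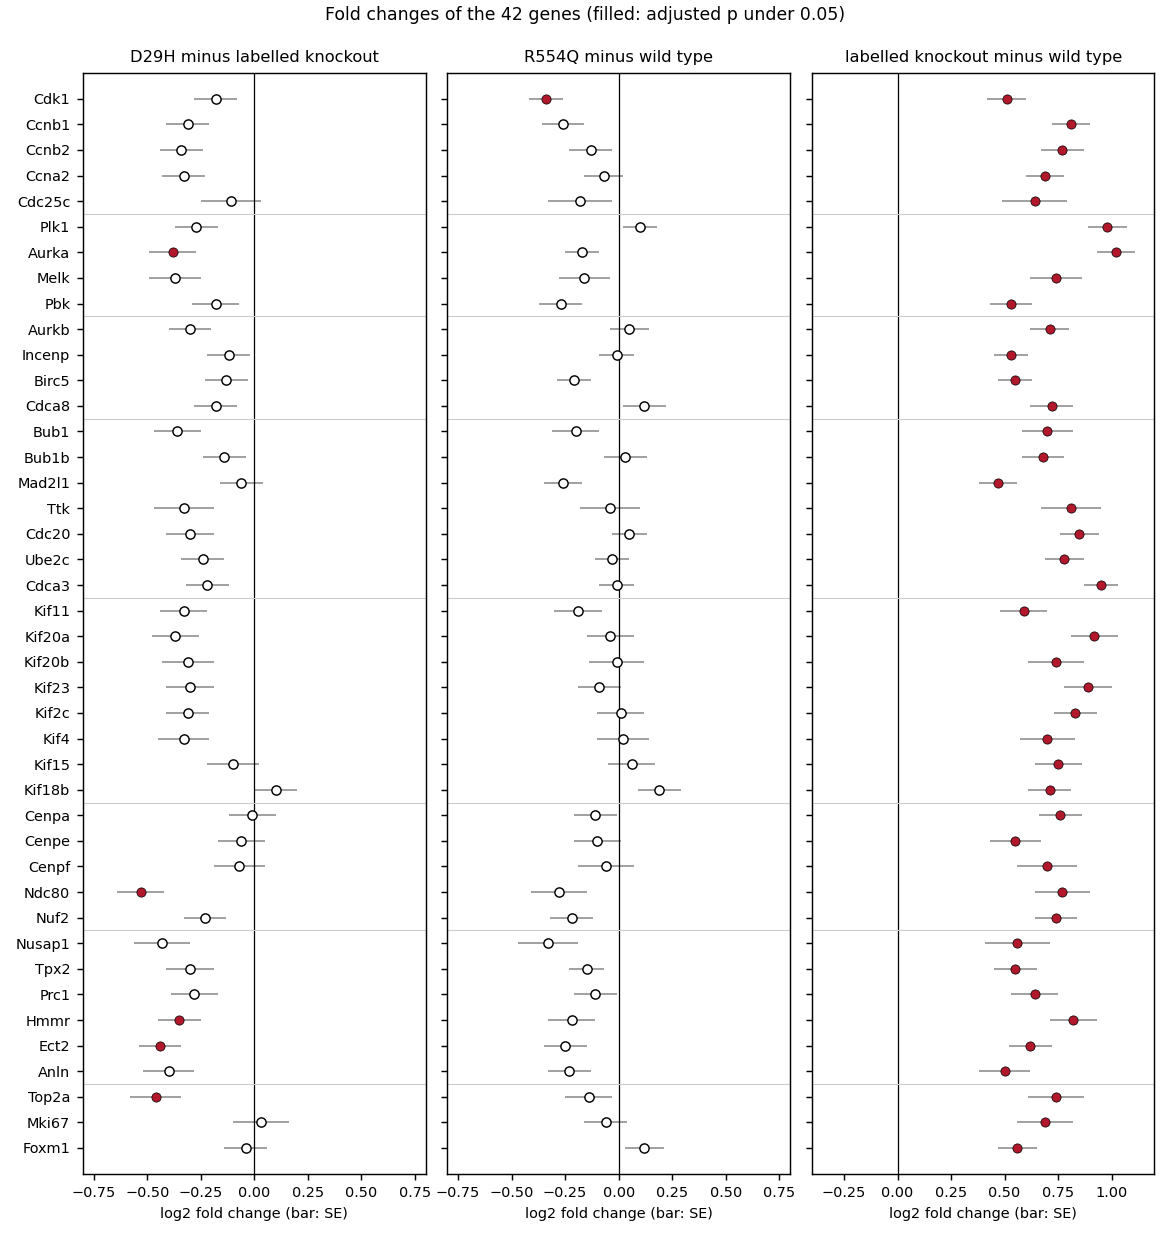
Fitted log2 fold change (x axis) of each gene with its standard error (bar) in D29H minus labelled knockout, R554Q minus wild type and labelled knockout minus wild type, with filled points for an adjusted p under 0.05. Filled points number 5, 1 and 42, and the first 2 panels lie mostly left of 0 with medians of -0.30 and -0.10 while the third lies right of 0 with a median of 0.71.

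Among the 5 genes of the CDK1 engine, 0 were called with D29H and 1 with R554Q. Cdk1, the kinase that drives entry into mitosis (chr10:69336635-69352938), was at 88.4, 79.6 and 89.4 CPM in the R554Q libraries and at 106, 114 and 106 CPM in the wild-type libraries. All 3 R554Q values were below all 3 wild-type values, and the gene fell by 0.34 ± 0.08 (log2, SE) to 0.791-fold, with an adjusted p of 0.0201 (edgeR). Over 19 alternative settings its change ran from -0.36 to -0.29 and its adjusted p from 0.00135 to 0.123, and 11 of the 19 called it. In the Nrf2 cells Cdk1 was at 151, 135 and 125 CPM with D29H and at 160, 154 and 152 CPM in the labelled knockout, a fitted change of -0.18 ± 0.1 that did not pass (adjusted p 0.285, edgeR). Ccnb1, the cyclin that CDK1 needs in mitosis, was at 103, 97.6 and 95.3 CPM with D29H and at 124, 118 and 126 CPM in the labelled knockout. These values did not overlap, yet the change of -0.31 ± 0.1 missed the threshold (adjusted p 0.0617, edgeR). With R554Q Ccnb1 was at 56.2, 52.3 and 66.2 CPM against 64, 77.4 and 67.9 CPM, where the groups overlapped through R554Q replicate 3. Ccnb2, the other B-type cyclin of the list, was at 56.8, 45.6 and 50.6 CPM with D29H and at 61.7, 64.6 and 67.3 CPM in the labelled knockout (-0.34, adjusted p 0.0529, edgeR). Its R554Q libraries, at 36.2, 30 and 36.8 CPM, reached into the wild-type range of 35.8, 39.9 and 37.6 CPM. The S-phase and mitotic cyclin Ccna2 had changes of -0.33 with D29H and -0.07 with R554Q, and Cdc25c, a phosphatase that activates CDK1, had -0.11 and -0.18.

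Of the 4 mitotic kinases, Aurka was called lower with D29H. Aurora A, its product, matures centrosomes and builds the spindle poles. Aurka (chr2:172356190-172370535) was at 96.3, 75.3 and 76.1 CPM with D29H and at 106, 105 and 111 CPM in the labelled knockout. It fell by 0.38 ± 0.11 to 0.769-fold (adjusted p 0.0403, edgeR), and D29H replicate 1 stood nearer to the labelled knockout than the other 2 did. Upper-quartile scaling ended this call, and 12 of 19 alternatives kept it (adjusted p 5.48e-07 to 0.282). In the Keap1 cells Aurka was at 45.8, 45 and 48.8 CPM with R554Q and at 49.8, 53.9 and 54.4 CPM in the wild type, without overlap but short of the threshold (-0.17, adjusted p 0.204, edgeR). Plk1, the polo kinase that acts from mitotic entry to cytokinesis, was at 65.4, 64.3 and 68 CPM with D29H and at 71.2, 76.8 and 90.5 CPM in the labelled knockout (-0.27, adjusted p 0.12, edgeR). With R554Q it was at 42.9, 41.4 and 44.8 CPM against 39.6, 39.4 and 41.7 CPM, so that its fitted change there was above 0 (0.10). Pbk, a kinase of dividing cells, was at 21.1, 20.8 and 22.7 CPM with R554Q and at 25.5, 27.9 and 24.7 CPM in the wild type (-0.27, adjusted p 0.0961, edgeR), without overlap. Its D29H libraries, at 37.4, 28.9 and 33.8 CPM, overlapped the labelled knockout, at 41.4, 35.2 and 36.3 CPM. Melk, another kinase of dividing cells, had changes of -0.37 and -0.16.

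None of the 4 genes of the chromosomal passenger complex was called in either comparison. This complex joins the kinase Aurora B to the scaffold INCENP, survivin (Birc5) and borealin (Cdca8), and corrects faulty attachments of chromosomes. Aurkb was at 43, 34.7 and 38 CPM with D29H and at 47.3, 45 and 49.7 CPM in the labelled knockout (-0.30, adjusted p 0.0923, edgeR). With R554Q it was at 29.2, 29.1 and 30.8 CPM, and at 27.7, 29.9 and 29 CPM in the wild type, with overlapping values and a change of 0.05. Birc5 was at 55.3, 57.4 and 51.9 CPM with R554Q and at 63.6, 67 and 60.5 CPM in the wild type, without overlap (-0.21, adjusted p 0.127, edgeR). Its D29H libraries, at 86.1, 82.5 and 87.6 CPM, also lay below the labelled knockout, at 95.5, 93 and 91.8 CPM, and the change of -0.13 did not pass. With R554Q the fitted changes of the 4 partners ran from -0.21 (Birc5) to 0.12 (Cdca8), and with D29H from -0.30 (Aurkb) to -0.12 (Incenp). Differences between the partners were not tested.

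Of the 7 genes of the spindle checkpoint and of the anaphase-promoting complex, 0 were called in either comparison. Bub1, a checkpoint kinase at kinetochores, was at 35.4, 29.6 and 28.2 CPM with D29H and at 37, 37 and 45.9 CPM in the labelled knockout (-0.36, adjusted p 0.0644, edgeR). With R554Q it was at 19.6, 18.8 and 25.4 CPM against 23.9, 24.9 and 25 CPM in the wild type, and R554Q replicate 3 was the highest of the 6. Mad2l1, which holds CDC20 inactive until chromosomes are attached, was at 61.6, 60.7 and 58.5 CPM with R554Q and at 72.1, 79.4 and 65.7 CPM in the wild type. These did not overlap, and the change of -0.26 ± 0.09 had an adjusted p of 0.0784 (edgeR). In the Nrf2 cells Mad2l1 was at 97.4, 101 and 89.2 CPM with D29H and at 112, 98.2 and 89.5 CPM in the labelled knockout, a change of -0.06. Bub1b (BubR1) had -0.14 and 0.03, and the checkpoint kinase Ttk had -0.33 and -0.04. Cdc20, the activator of the complex, had -0.30 and 0.05, its E2 enzyme Ube2c had -0.24 and -0.03, and Cdca3, linked to the destruction of mitotic inhibitors, had -0.22 and -0.01.

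None of the 8 kinesins, motor proteins that walk along or take apart spindle microtubules, was called in either comparison, and their median change was -0.31 with D29H and 0 with R554Q. Kif20a, a kinesin of the cell midzone needed for cytokinesis, was at 61.5, 50.8 and 54.4 CPM with D29H and at 65.7, 65.8 and 83.7 CPM in the labelled knockout (-0.37, adjusted p 0.0534, edgeR). Its Keap1 libraries overlapped, at 36.1, 32.3 and 41.9 CPM with R554Q and 33.7, 41.6 and 38.2 CPM in the wild type. Kif18b, which shortens astral microtubules, was at 40.1, 42.2 and 44.4 CPM with D29H and at 38.3, 42.1 and 37.2 CPM in the labelled knockout. The R554Q libraries had 25.5, 30.9 and 25.5 CPM and the wild type 26.3, 22.1 and 23.7 CPM. Its fitted changes of 0.10 and 0.19 were the highest of the 42 genes in either comparison, and neither passed (adjusted p 0.562 and 0.277, edgeR). The other 6 ran from -0.33 to -0.10 with D29H and from -0.19 to 0.06 with R554Q: Kif11 (the motor that pushes spindle poles apart) had -0.33 and -0.19, Kif4 -0.33 and 0.02, Kif2c -0.31 and 0.01, Kif20b -0.31 and -0.01, Kif23 -0.30 and -0.09, and Kif15 -0.10 and 0.06.

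Of the 5 kinetochore genes, Ndc80 was called lower with D29H, and its change was the lowest of the 42. NDC80 and NUF2 form the rod that grips microtubules. Ndc80 (chr17:71496100-71526857) was at 27.5, 22.1 and 22.9 CPM with D29H and at 33, 33.6 and 38.4 CPM in the labelled knockout. It fell by 0.53 ± 0.11 to 0.691-fold without overlap (adjusted p 0.00892, edgeR), and 17 of 19 alternatives called it (changes of -0.64 to -0.44, adjusted p 1.05e-06 to 0.109). With R554Q it was at 15.9, 13.5 and 20.9 CPM against 19.9, 21.9 and 19.5 CPM in the wild type, where replicate 3 of R554Q lay inside the wild-type range (-0.28, adjusted p 0.204, edgeR). Its partner Nuf2 was at 69, 59 and 55.9 CPM with D29H and at 75.1, 70.8 and 69.6 CPM in the labelled knockout (-0.23, adjusted p 0.174, edgeR). With the other allele Nuf2 was at 38.6, 33 and 38.9 CPM with R554Q and at 43.6, 47 and 38.4 CPM in the wild type, with overlap (-0.22). The centromere genes were nearer to 0: Cenpa had -0.01 and -0.11, the kinetochore motor Cenpe -0.06 and -0.10, and Cenpf -0.07 and -0.06.

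The 6 genes of spindle assembly and cytokinesis had the lowest median of the 8 role groups with D29H (-0.37), and 2 of them, Ect2 and Hmmr, were called. ECT2 activates RhoA at the division plane. Ect2 (chr3:27097222-27153878) was at 48.7, 42.3 and 40.2 CPM with D29H and at 54.7, 58.6 and 64.6 CPM in the labelled knockout, and it fell by 0.44 ± 0.10 to 0.737-fold (adjusted p 0.0186, edgeR). The groups did not overlap, and 15 of 19 alternatives called it (adjusted p 9.02e-06 to 0.177). In the Keap1 cells Ect2 was at 30.5, 29.4 and 36.7 CPM with R554Q and at 37.3, 39.6 and 38.5 CPM in the wild type, also without overlap (-0.25, adjusted p 0.118, edgeR). Hmmr, which helps Aurora A at the spindle poles (chr11:40701395-40733422), is named because it was called, after its values were seen. It was at 66.3, 57 and 56.3 CPM with D29H and at 74.2, 71.3 and 83.4 CPM in the labelled knockout. It fell by 0.35 ± 0.10 to 0.784-fold (adjusted p 0.0486, edgeR), and this call, close to the threshold, was kept by 6 of 19 alternatives (adjusted p 0.000332 to 0.286). With R554Q its libraries overlapped the wild type, at 32.9, 34.1 and 44 CPM against 42.3, 48.2 and 39 CPM. Nusap1, which bundles spindle microtubules, had -0.43 and -0.33, and Anln, the ring scaffold anillin, had -0.40 and -0.23. Tpx2, the activator of Aurora A, had -0.30 and -0.15, and Prc1, which links the microtubules of the midzone, had -0.28 and -0.11.

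The last 3 genes are the chromosome proteins Top2a and Mki67 and the transcription factor Foxm1. Top2a, the topoisomerase that untangles sister chromatids (chr11:98992943-99024189), was at 157, 143 and 137 CPM with D29H and at 173, 181 and 246 CPM in the labelled knockout. It fell by 0.46 ± 0.12 to 0.729-fold without overlap (adjusted p 0.0323, edgeR), and labelled-knockout replicate 3 was far above its 2 fellows. Over the alternatives its change ran from -0.56 to -0.27 and its adjusted p from 0.000565 to 0.238, with 15 of 19 calling it. With R554Q Top2a was at 100, 94.4 and 130 CPM against 114, 134 and 112 CPM, with overlap. Mki67, the proliferation marker Ki-67 that coats mitotic chromosomes, was at 90.1, 132 and 110 CPM with D29H and at 99.8, 99.7 and 127 CPM in the labelled knockout, a change of 0.03 with wide spread. The Keap1 libraries had Mki67 at 63.1, 56.7 and 72.9 CPM with R554Q and at 64, 73.8 and 63.9 CPM in the wild type (-0.06). Foxm1 was at 69.1, 80.4 and 75.7 CPM with D29H and at 73.5, 72.8 and 84.8 CPM in the labelled knockout (-0.04). With R554Q Foxm1 was at 55.4, 62.5 and 51.3 CPM against 54, 53.8 and 48.4 CPM (0.12). Neither Mki67 nor Foxm1 passed in either comparison, at adjusted p of 0.439 to 0.915 (edgeR). Over the alternatives the D29H change of Mki67 ran from -0.12 to 0.28, and 1 of 19, the block on description numbers, called it (adjusted p 0.00495).

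The difference between the alleles, the D29H change minus the R554Q change in 1 fit of all 12 libraries, was called for 0 of the 42 genes (0.027% of 14794 genes). The same count was 0 with DESeq2, and 5 genes had an unadjusted p under 0.05, all with the lower change under D29H (5.18% of all genes). They were Plk1 (-0.37), Aurkb (-0.34), Cdc20 (-0.34), Kif2c (-0.30) and Cdca8 (-0.29), named after their values were seen. Over the 42 the difference ran from -0.37 to 0.20 with a median of -0.16, and the median was -0.07 without labelled-knockout replicate 3. That Ndc80, Ect2, Top2a, Aurka and Hmmr were called with D29H alone and Cdk1 with R554Q alone is therefore not shown to be a difference between the alleles.

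The average of both changes, which uses all 12 libraries, was called lower for 18 of the 42 genes and higher for 0, where 7.33% of all genes were called lower. The 18 were Cdk1, Ccnb1, Ccnb2, Ccna2, Aurka, Melk, Pbk, Birc5, Bub1, Kif11, Ndc80, Nuf2, Nusap1, Tpx2, Hmmr, Ect2, Anln and Top2a. The changes were small: the 42 ran from -0.41 (Ndc80) to 0.14 (Kif18b), with a median of -0.18 (0.883-fold). By role, the called genes were 4 of 5 of the CDK1 engine, 3 of 4 kinases, 1 of 4 passenger genes, 1 of 7 checkpoint genes, 1 of 8 kinesins, 2 of 5 kinetochore genes, 5 of 6 of spindle assembly and cytokinesis and 1 of the last 3, and differences between roles were not tested. Other cell cycle genes moved as well: 9 of 25 genes of G1 and S phase were called lower (median -0.19, 25 below 0). So were 4 of 13 condensin and cohesin genes (median -0.19). Of 47 other mitotic genes 9 were called lower and 2 higher (median -0.11). A fall in this average was thus not particular to the 42 genes. In the same average Cd14 (macrophage), Des (muscle) and Vim (fibroblast) were called lower and Pdgfra (fibroblast) higher. The 8 macrophage markers had a median of -0.22 with 7 below 0. The part of these markers in the result was not tested. Cdk1 fell by 0.26 ± 0.06 (adjusted p 0.00794), Ccnb1 by 0.29 ± 0.07 (0.00793), Aurka by 0.28 ± 0.07 (0.00892), Ndc80 by 0.41 ± 0.09 (0.00562) and Ect2 by 0.35 ± 0.07 (0.0031), all with edgeR, and all 24 alternatives called these 5. The count was 5 without D29H replicate 3 (2.81% of all genes called lower in that fit) or wild-type replicate 2 (2.43%), 6 without D29H replicate 2 (2.79%) or R554Q replicate 2 (3.14%), 8 without R554Q replicate 1 (3.76%) and 11 without wild-type replicate 3 (4.14%). With replicate numbers as a block, which these data do not pair, it was 9 (3.95%). The share over all genes thus fell from 7.33% in the same fits.

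Counts of calls within a culture changed when single libraries were left out. Without D29H replicate 2 or 3 the comparison with the labelled knockout called 0 of the 42 genes, and without D29H replicate 1 it called 18. The count was 15 without labelled-knockout replicate 1, and 2 without labelled-knockout replicate 2 or 3. With R554Q it was 11 without R554Q replicate 3 and 0 without any other library. The share of all genes called lower moved in the same fits, from 0.0619% to 6.83% and from 0.334% to 9.33%. Labelled-knockout replicate 3, the shallowest library, was the highest of its group for 33 of 42 genes (40.5% of all genes), R554Q replicate 3 for 31 (38.2%) and wild-type replicate 2 for 31 (35.8%). Without labelled-knockout replicate 3 the median change with D29H was -0.19 in place of -0.30. The mean log2 deviation of the 42 genes from their 12-library means was 0.36, 0.39 and 0.57 in the labelled knockout and 0.25, 0.19 and 0.15 with D29H, so every D29H library was below every labelled-knockout library on this mean. In the Keap1 cells it was -0.42, -0.43 and -0.27 with R554Q and -0.31, -0.17 and -0.32 in the wild type, and R554Q replicate 3 lay within the wild-type range. The median change with R554Q, -0.10, was -0.16 without R554Q replicate 3 and -0.03 without wild-type replicate 2. Across 14713 genes, which are not independent, within-group deviations were correlated with GC content. The r was -0.16 for labelled-knockout replicate 3, -0.27 for R554Q replicate 3 and -0.31 for wild-type replicate 2. In the other libraries r ran from -0.13 (D29H replicate 2) to 0.24 (wild-type replicate 3). Whether GC content is a cause of the deviations was not tested. The 42 genes had a median GC content of 46.2% against 49.8% over all genes, with 31 of 42 below the latter. With offsets per library for GC and length the median change was -0.25 with D29H and -0.04 with R554Q.

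**Figure D4:**
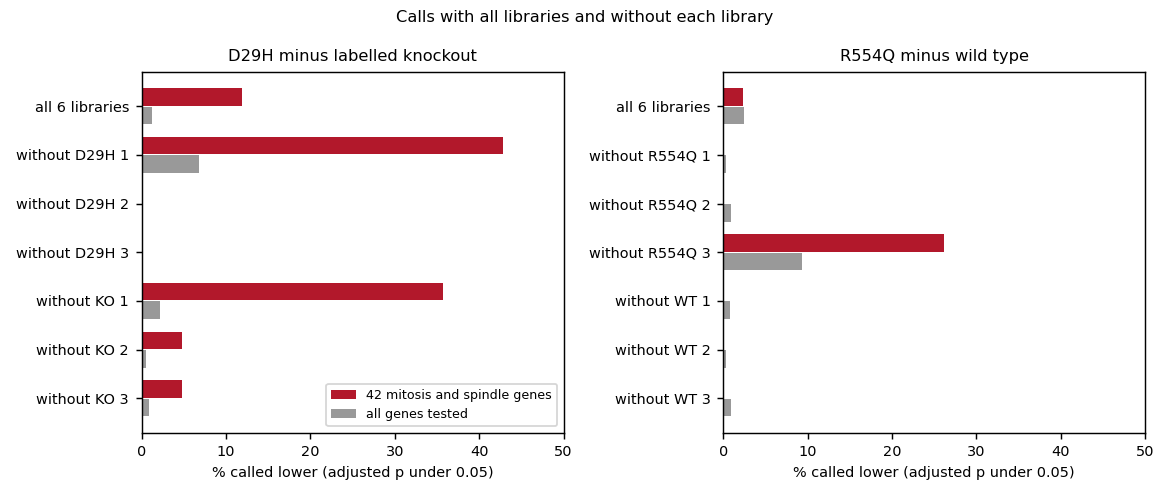
Share of the 42 genes (red) and of all tested genes (grey) called lower, in percent, with all 6 libraries of a culture and without each library. The D29H comparison calls 5 genes with all libraries and 0 to 18 without a library, and the R554Q comparison 1 and 0 to 11.

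Between the cultures the genes differed more. All 42 were called higher in the labelled knockout than in the Keap1 wild type, both with the empty virus (9.58% of 14794 genes called higher), with no overlap for 42 of 42 (17.9% of all genes). The median was 0.71 on the log2 scale (1.64-fold), from 0.47 for Mad2l1 to 1.02 for Aurka. Aurka stood at 106, 105 and 111 CPM against 49.8, 53.9 and 54.4 CPM (2.03-fold), and Plk1 followed with 0.98 ± 0.09 (1.97-fold), Cdca3 with 0.95 ± 0.08 (1.93-fold) and Kif20a with 0.92 ± 0.11 (1.89-fold). By role the median ran from 0.59 (spindle assembly and cytokinesis) to 0.86 (kinases). Leaving out any library kept 41 or 42 calls, with medians of 0.59 to 0.78. Because the labelled-knockout libraries enter this contrast and the D29H contrast alike, the 2 are not independent. The comparison of D29H with R554Q, added after the data were seen, uses the other 6 libraries: 42 of 42 were called higher with D29H (13.1% of all genes), from 0.33 (Anln) to 0.87 (Cenpa) with a median of 0.56, and 39 did not overlap (18.3%).

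All 6 Nrf2 libraries lay above all 6 Keap1 libraries for 39 of 42 genes (6.44% of all genes), and the exceptions were Ttk, Nusap1 and Anln. The group means fell in the order labelled knockout, D29H, wild type, R554Q for 31 of 42 genes (7.06% of all genes). In 9 genes (4.32% of all genes), Plk1, Aurkb, Cdca8, Bub1b, Cdc20, Kif2c, Kif4, Kif15 and Foxm1, the 2 Keap1 groups were swapped. In Kif18b and Mki67 D29H was highest (the orders of 8.5% and 5.81% of all genes). Within a culture, D29H was called below the labelled knockout for 5 of the 42 (1.28% of all genes). R554Q was called below the wild type for 1 (2.4%). The libraries did not overlap, lower with Cre, for 25 (12.6%) and 6 (13.9%). Both R554Q counts were at the level of the background. Markers of cell types also differed between the cultures, in both directions. The 8 macrophage markers, all detected, summed to 141 to 178 CPM in the labelled knockout and 160 to 182 CPM with D29H, against 102 to 113 CPM in the wild type and 73.4 to 85.4 CPM with R554Q, and 7 of 8 were called higher in the labelled knockout than in the wild type. Of the 9 fibroblast markers 5 were called higher there, as was the neural marker Map2, while the neural marker Tubb3 and the epithelial marker Krt18 were called lower. Their part in the result was not tested.

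Genes near these 42 in the cell cycle were taken from lists, whose counts stand beside 1.28% of all genes called lower with D29H, 2.4% called lower and 3.77% higher with R554Q, and 9.58% called higher and 10.1% lower in the labelled knockout than in the wild type. Of 47 other mitotic genes, 2 were called lower with D29H, Dlgap5 (-0.41) and Cep55 (-0.39), with a median of -0.13. With R554Q 3 were called lower, Depdc1a (-0.57), Trip13 (-0.38) and Cenpk, and 1 higher, Gtse1. In the labelled knockout against the wild type 39 of the 47 were higher and Zwint was lower. Of 13 condensin and cohesin genes, which shape and tie chromosomes, Smc2 (-0.42) and Rad21 (-0.39) were called lower with D29H, none was called with R554Q, and 8 were higher between the empty-virus groups. Their median with D29H was -0.24, with 12 of 13 below 0. The 14 genes of the anaphase-promoting complex, its subunits and the activator Fzr1 (CDH1), had 0 calls with either allele, while Cdc23 (0.30) and Fzr1 (0.47) were higher and Anapc13 (-0.31) was lower between the empty-virus groups. Of 25 genes of G1 and S phase, 7 were called lower with D29H, including Ccne1 (-0.49) and Mcm2 (-0.45), 2 with R554Q, Ccne2 (-0.44) and Tyms (-0.38), and 11 were higher and 1, Ccnd2, lower between the empty-virus groups (median 0.28, against 0.71 for the 42). With D29H the median of these 25 was -0.23, with 24 below 0, against -0.30 for the 42.

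**Figure D5:**
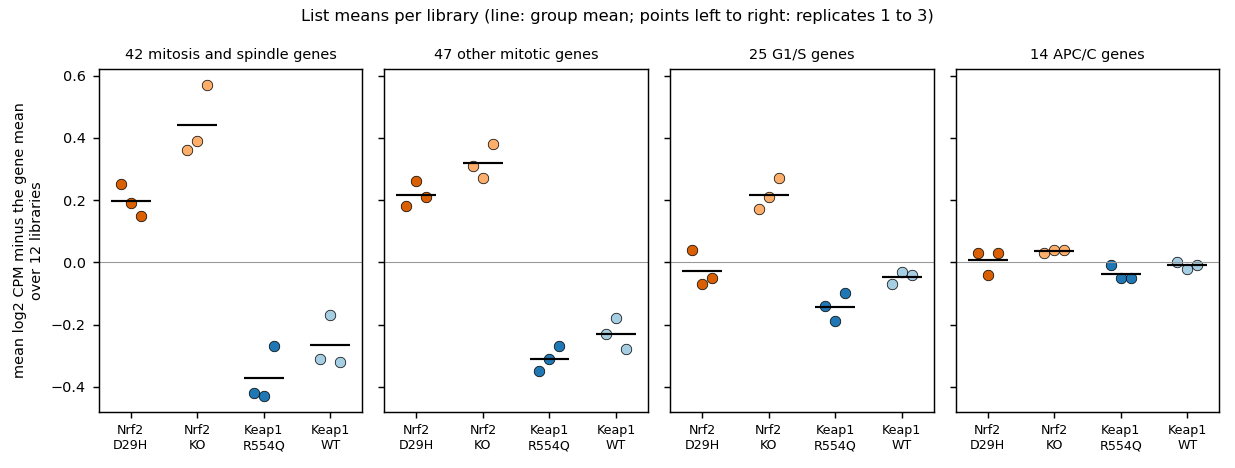
Mean log2 CPM of 4 gene lists in each library relative to the gene's mean over 12 libraries (y axis), with 3 points per group in replicate order and a line at the group mean. The 42 genes and the 47 other mitotic genes lie above 0 in all 6 Nrf2 libraries and below 0 in all 6 Keap1 libraries, and the 14 genes of the anaphase-promoting complex (APC/C) stay between -0.05 and 0.04.

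Among 20 regulators of the DREAM, MuvB, E2F and NF-Y families, Rbl1, the pocket protein p107, was called lower with D29H (-0.48), and none was called with R554Q. Between the empty-virus groups E2f1, E2f2, Lin54, Mybl2 and Rbl1 were higher and Rbl2 was lower. Mybl2 (B-MYB), at 37.7, 42 and 40.1 CPM against 27.4, 30 and 29.5 CPM, was 0.46 higher (adjusted p 0.00242, edgeR). Of 7 inhibitors of cyclin-dependent kinases, Cdkn1c was called lower with D29H (-0.38), and Cdkn2a (0.44) and Cdkn2b (0.40) were called higher with R554Q. Cdkn2a was at 193, 215 and 178 CPM with R554Q and at 145, 125 and 162 CPM in the wild type, without overlap, while the labelled knockout had 83.2, 92.6 and 113 CPM (-0.59 against the wild type, adjusted p 0.00166, edgeR). Cdkn2c and Cdkn2d were higher in the labelled knockout than in the wild type, by 0.98 and 0.82, as was Cdkn1b. Names given for counts of 5 or fewer were chosen after the values were seen. Cdkn1a (p21), the p53 target that halts the cycle, was at 463, 425 and 471 CPM with D29H, 423, 492 and 458 CPM in the labelled knockout, 505, 543 and 537 CPM with R554Q and 502, 469 and 505 CPM in the wild type. It was called in none of these 3 comparisons, with changes of -0.02, 0.11 and -0.10.

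Among the 42 genes, 7 overlap a neighbour on the opposite strand with a sizeable count, and whether counting used strand is not given in the sources used here. Reads of such partners cannot be told apart without it. The partner's reads came to 141% of the member's for Kif4 (Pdzd11), 111% for Kif20a (Cdc23), 63.3% for Cdca8 (9930104L06Rik), 53.1% for Ccna2 (Exosc9), 52.8% for Cdc20 (Elovl1), 25% for Nusap1 (Oip5) and 6.8% for Cdc25c (Gm3550). None of the 6 genes called in either Cre comparison is among them, while Ccna2 and Nusap1 are among the 18 called in the average.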

How the data were processed

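RNA from 12 libraries, 3 in each of 4 groups set by the sample titles and treatments, was analysed. Raw counts of reads for each gene were deposited by the authors, 1 table per allele, as the headers name them. The same deposited tables hold FPKM, per the file headers, group means of scaled counts (a signal, not used here), log2 fold changes, and p-values with adjusted p-values. The submitters' processing notes list STAR, DESeq2 and mm10; their versions, the annotation and the use of strand are not given in the sources used here. Gene positions are as deposited; 42 of 42 members overlapped GENCODE M21 (GRCm38) on the same strand.

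Counts were tested in R 4.3.3 with edgeR 4.0.16 (filterByExpr, TMM, quasi-likelihood test, Benjamini-Hochberg over all genes tested), in each culture on its own 6 libraries (4 residual degrees of freedom) and for contrasts between cultures on 12 (8). The SE is the log2 fold change divided by the root of the test statistic. CPM are scaled over 12 libraries. FPKM entered no test. Pairs of replicates differed beyond sampling noise (chi-square over degrees of freedom 4.95 to 25.1). The procedure was tested on simulated data. Alternatives were other scalings, filters and thresholds, DESeq2 1.42.0, limma 3.58.1, blocks, GC and length offsets (lowess, span 0.3) and leaving out each library.

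Members and lists were chosen with earlier results of these data known. Values in every library are given for Cdk1, Ccnb1, Plk1, Mki67, Top2a, Foxm1 and, in each of 8 role groups, the members with the smallest unadjusted p in the Nrf2 and in the Keap1 comparison. Non-members named are Nfe2l2, Nqo1, Cdkn1a, marker genes and up to 2 genes a list with the smallest p; other genes of the lists and the opposite-strand neighbours were named after their values were seen.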

Additional observations from a re-analysis of the deposited data

How the results depend on the processing

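Of the 42 genes, the main count called lower with D29H was 5 (1.28% of all genes called lower in the same fit), and 3 with upper-quartile scaling (0.898%), 13 with no filter on low counts (2.06%), 9 with DESeq2 (2.12%), 1 at an adjusted p under 0.01 (0.16%), 17 under 0.1 (3.88%) and 0 to 18 without 1 library (0.0619% to 6.83%), where the median ran from -0.35 to -0.19. With R554Q the count was 1 (2.4%), and 2 with no filter (3.09%), 0 at 0.01 (0.361%), 3 at 0.1 (5.64%) and 0 to 11 without 1 library (0.334% to 9.33%). For the average it was 18 (7.33%), and 5 at 0.01 (1.53%) and 5 to 21 without 1 library (2.43% to 12%). The median difference between the alleles, -0.16, ran from -0.22 to -0.07 without 1 library. The median between the empty-virus groups, 0.71, ran from 0.59 to 0.78 without 1 library and was 0.56 between the Cre groups. The cause was not tested.

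Replicate numbers did not pair the samples: deviations of same-numbered libraries correlated at r of -0.10, -0.07 and -0.02 in the Nrf2 cells and 0.03, -0.17 and -0.02 in the Keap1 cells, and not every library correlated best with its own number. With the replicate block the counts were 5 with D29H (1.42% of all genes; Nusap1 called in place of Hmmr), 0 with R554Q (1.11%) and 9 in the average (3.95%), and with the block and GC and length offsets 3 (1.19%), 1 (1.46%) and 8 (4.2%). A block on the numbers of the description labels, which leaves 1 residual degree of freedom with D29H, gave 22 lower (13.3% of all genes) and 1 higher (Mki67) with D29H, where 2029 of 14370 genes were higher, 0 with R554Q (1.11%) and a median of 0.59 between the empty-virus groups.

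With 3 libraries a group, single calls within a culture are sensitive to 1 library.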
